A study of Mus musculus with 53 samples.

Results

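Acute phase and serpin genes were followed in mouse heart through 8 genes taken by symbol from a deposited table of 34306 genes: Saa3, Lcn2, Hp, Cp, Serpina3n, Serpine2, Il1b and Il1r1. Each had 1 row, and all 8 were present. The table holds 12 sequencing libraries of adult mouse heart. Input libraries contain total cytoplasmic RNA, and TRAP libraries contain RNA recovered with tagged ribosomes (translating ribosome affinity purification), so that TRAP RNA was bound to ribosomes of the tagged cells. Levels are RPKM, in which the reads of a gene are divided by the length of its transcript in kilobases and by the reads in the library.

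The acute phase response is a change in secreted proteins that follows infection, injury or surgery, and it is best known from the liver, where interleukin 1 and interleukin 6 switch on transcription through NF-kB, C/EBP and STAT3 factors. Several of its genes are also read outside the liver, in heart muscle, fibroblasts, endothelium and white blood cells. Serpins are protease inhibitors that trap their target in a covalent complex, and some of them are acute phase proteins too. Interleukin 1 beta is an inflammatory cytokine made mainly by myeloid cells, and the interleukin 1 type 1 receptor passes its signal to NF-kB.

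CAG hearts, in which all lineages carry the ribosome tag as the labels of a first deposit of the series put it, gave 2 libraries in each of 4 groups: sham input, sham TRAP, band input and band TRAP. Banding was a ligature around the ascending aorta that constricted it to the width of a needle, and sham mice had the same operation with no ligature. The operated mice were male. CAG hearts without surgery gave 1 input and 1 TRAP library, and Tie2 hearts, in which a Tie2-Cre switches on the tag in endothelial cells, gave 1 of each, also without surgery. Tie2-Cre is known to mark blood lineages as well as endothelium. The labels of the later deposit, to which the table was assigned, give only adult age and the treatment. A 129/C57BL mixed background is given for the first deposit, and the sex of the unoperated mice and the time after surgery are not stated. The RNA was pooled, and no label states separate mice for the 2 libraries of a group, so each p-value rests on a spread between libraries that may be technical only.

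Libraries held 26568988 to 94878619 reads. Over the 11654 genes tested, the 2 libraries of a group differed by a median of 0.08 to 0.11 on the log2 scale in sham input, sham TRAP and band input and by 0.20 in band TRAP, whose 2 libraries were least alike. The summed RPKM of 9 endothelial markers was 12409.7 in Tie2 TRAP and 1368 in Tie2 input, most of it Fabp4 and each of the 9 being higher in TRAP, and that of 8 cardiomyocyte markers was 3236 against 63435.3. Macrophage and leukocyte markers also stood higher in Tie2 TRAP, at a sum of 2753 RPKM against 347 in Tie2 input, over 14 genes. The 8 hepatocyte markers summed to 1.96 to 3.27 RPKM over the operated libraries, 6.83 in CAG input and 6.16 in CAG TRAP without surgery, 12.2 in Tie2 input and 116 in Tie2 TRAP. In Tie2 TRAP nearly all of that was Ahsg, at 115 RPKM, while over all 12 libraries Fgb and Cyp3a11 were at 0 and Alb was at most 0.0129 RPKM.

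RefSeq promoter windows were found for 7 of the 8 genes, Hp excepted. Those of Saa3, Serpina3n and Lcn2, the 3 genes called higher with banding in TRAP RNA below, are shown so that the sequence before each start can be read beside the levels. They are from GRCm38.p6, a later build than that of the expression table, and are written in the direction of transcription. The Saa3 window is chr7:46715677-46715926 on the minus strand, the Lcn2 window is chr2:32387740-32387989 on the minus strand, and each holds the 250 bases before the RefSeq start. The Serpina3n window is chr12:104406458-104406645 on the plus strand, 188 bases long, and stops where an earlier annotated start of the gene lies. Capitals mark the C/EBP core.
Saa3: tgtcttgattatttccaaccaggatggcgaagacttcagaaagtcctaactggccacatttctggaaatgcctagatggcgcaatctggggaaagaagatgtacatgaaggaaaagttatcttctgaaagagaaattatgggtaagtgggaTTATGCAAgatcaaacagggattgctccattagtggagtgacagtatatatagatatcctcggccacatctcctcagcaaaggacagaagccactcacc
Lcn2: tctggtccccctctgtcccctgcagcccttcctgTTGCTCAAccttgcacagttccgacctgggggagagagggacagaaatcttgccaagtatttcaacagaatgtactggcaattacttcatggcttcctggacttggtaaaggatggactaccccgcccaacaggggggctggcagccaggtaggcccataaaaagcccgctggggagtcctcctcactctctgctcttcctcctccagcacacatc
Serpina3n: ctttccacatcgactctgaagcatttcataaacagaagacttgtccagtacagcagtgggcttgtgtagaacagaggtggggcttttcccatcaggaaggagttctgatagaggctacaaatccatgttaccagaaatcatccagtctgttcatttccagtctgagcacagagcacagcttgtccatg

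The C/EBP core was searched as TTNNGCAA on both strands in the 250 bases before each start, and 9.56% of 32851 promoters of that length hold it. In Saa3 it lay 99 to 92 bases before the start. In Lcn2 it lay 216 to 209 bases before the start, on the opposite strand. In the other windows it was found at 1 of the starts of Cp, 70 to 63 bases before it. It was also found at 1 of the starts of Il1r1, 133 to 126 bases before it, on the opposite strand. The NF-kB consensus, present in 7.25% of promoters, was matched at another start of Il1r1, 232 to 223 bases before it, on the opposite strand. The STAT motif TTCNNNGAA, present in 7.02%, was matched in no member's window. A TATA box, searched as TATAAA on the gene's own strand and present in 7.59%, was matched in Il1b, 31 to 26 bases before the start, and in Cp, 25 to 20 bases before it. No 2 of these matches overlap. They are letters in a window and say nothing of whether a factor binds, and the windows without a match say nothing of that either.

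Saa3 and Serpina3n rose with banding in both RNA fractions. By the ratio of mean RPKM, Saa3 was 6.51-fold higher in band input and 7.78-fold higher in band TRAP, and Serpina3n 2.14-fold and 2.58-fold. Il1b rose in input RNA, and Lcn2 rose in TRAP RNA. Lcn2 and Serpina3n also had the 2 largest increases of all 11654 genes between unoperated and sham input. In input RNA, 3 of the 8 genes were called higher with banding and none lower, where 2.44% of all genes tested were called higher and 1.65% lower. One of the 3, Il1b, entered the test only by being high in band input, so its call is no support for that count. In TRAP RNA, 3 of 8 were called higher and none lower, against 2.21% and 1.56% of all genes. A call is an adjusted p under 0.05 by limma on log2(RPKM + 1). Banding left the median gene at -0.01 in both fractions, and the median of the 8 genes was 0.59 in input and 0.54 in TRAP RNA. The genes and their lists were chosen with earlier results of these data known, so these counts describe them and do not test the set.

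**Figure D1:**
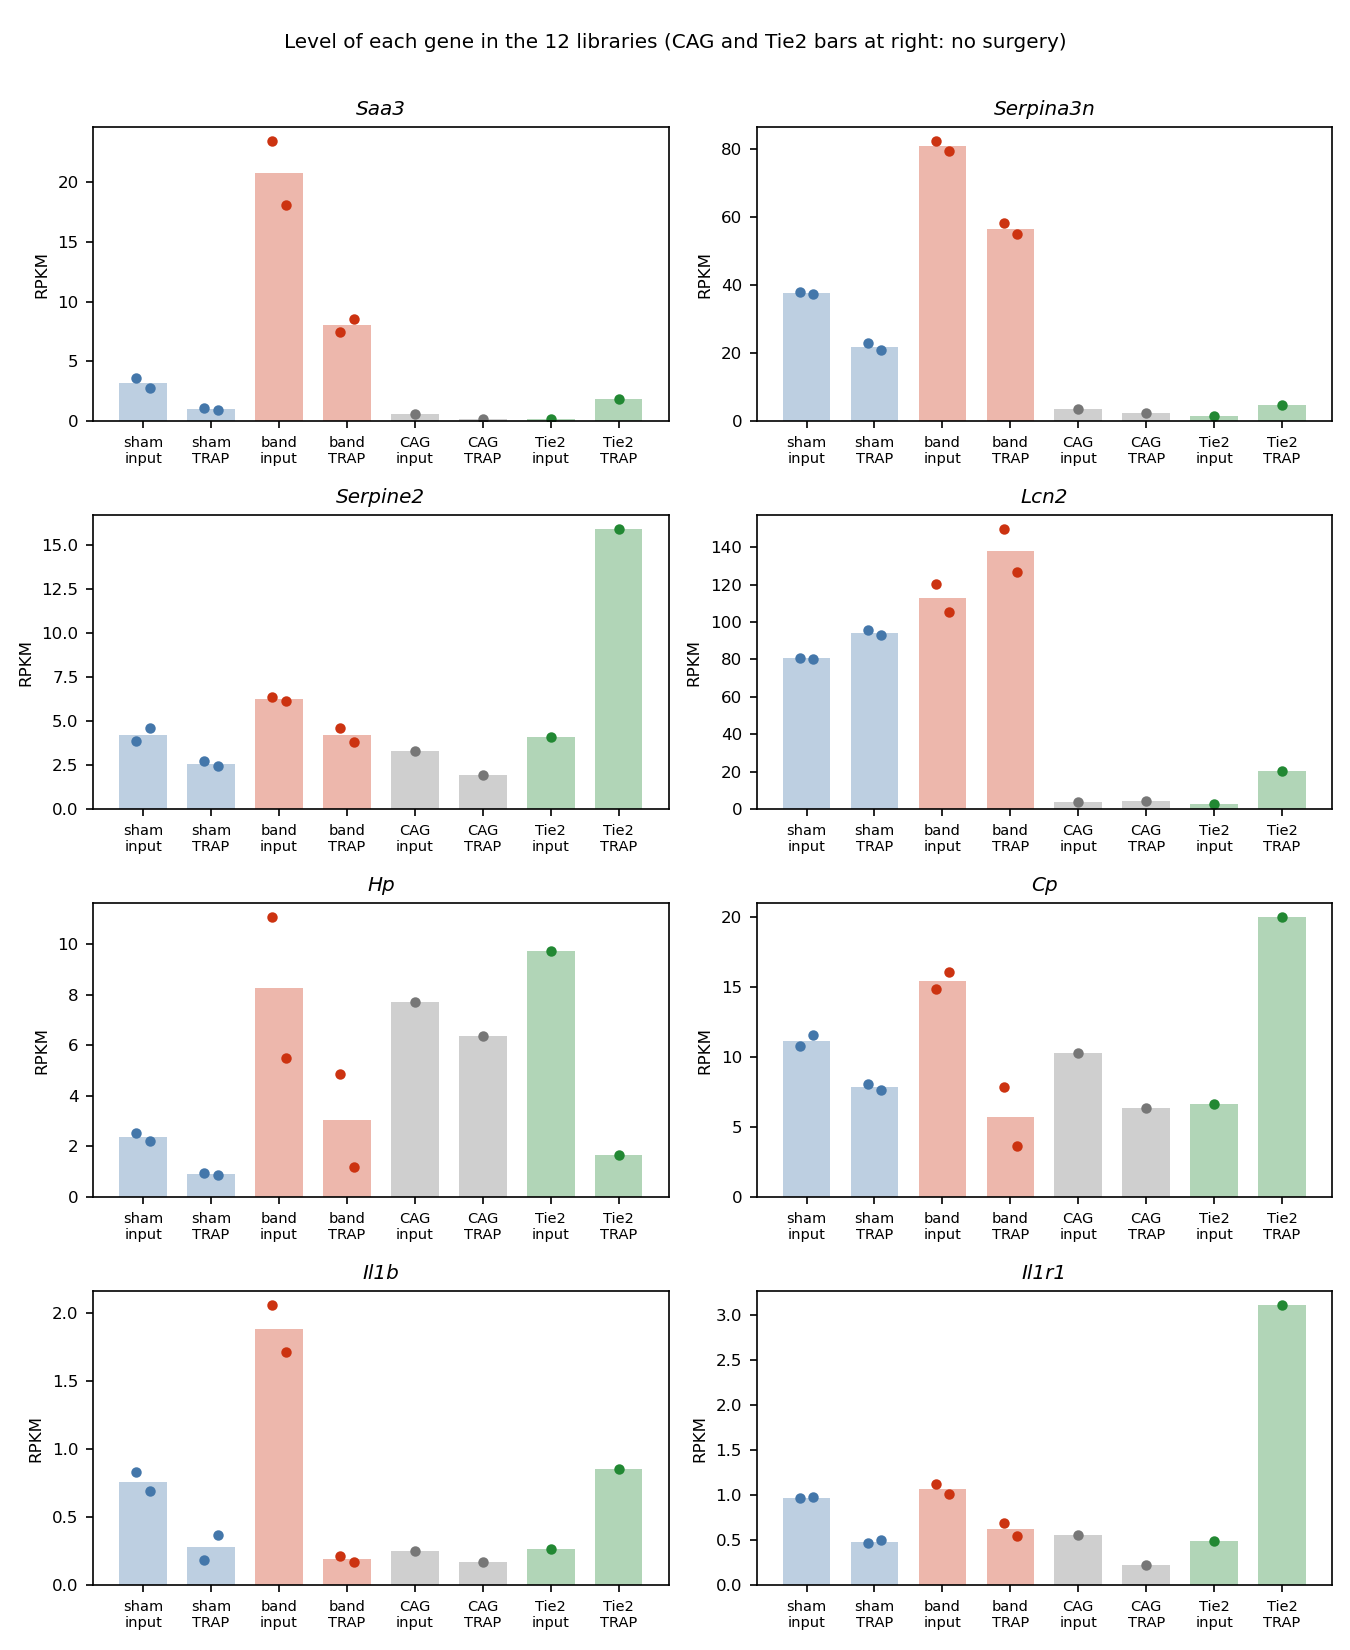
RPKM of each of the 8 genes (vertical axis, linear from 0, own scale per gene) in the 8 groups; points are libraries, bars are their mean (2 libraries after surgery, 1 without). Saa3 and Serpina3n stand highest in band input, Lcn2 in band TRAP, and Serpine2, Cp and Il1r1 in Tie2 TRAP.

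Saa3 encodes a serum amyloid A protein that is made mostly outside the liver, in inflamed tissue, macrophages and fat. Its level was 3.58 and 2.79 RPKM in sham input and 23.4 and 18.1 RPKM in band input. In TRAP RNA it was 1.12 and 0.946 RPKM after sham surgery and 7.50 and 8.55 RPKM after banding. All 4 band libraries stood above all 4 sham libraries. The rise on the log2(RPKM + 1) scale was 2.37 in input (SE 0.15, adjusted p 0.00101) and 2.15 in TRAP RNA (SE 0.15, adjusted p 0.00172), the 7th and 6th largest increases of 11654 genes. Both calls held under every alternative run, 20 in input and 19 in TRAP RNA. Without surgery Saa3 was at 0.567 RPKM in CAG input, 0.218 in CAG TRAP and 0.187 in Tie2 input, from 8, 11 and 5 reads. Tie2 TRAP held 1.90 RPKM from 39 reads. The order of the operated groups was band input, band TRAP, sham input and sham TRAP. The exact Poisson 95% interval of Tie2 TRAP (1.35 to 2.59 RPKM) overlaps those of sham input 2 and both sham TRAP libraries, so its place beside them is not given. The other 3 unoperated libraries had the lowest values. Their intervals overlap (0.245 to 1.12, 0.109 to 0.391 and 0.0608 to 0.437 RPKM), so their order is not given. That of CAG input also overlaps those of both sham TRAP libraries. Such intervals cover counting error only.

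The other serum amyloid A genes were close to 0, the highest of Saa1, Saa2 and Saa4 being 0.183 RPKM, for Saa1 in band input 2. How the counting treated reads shared by near-identical copies is not known from the sources at hand. In bulk RNA, more cells of a type and more RNA per cell cannot be told apart. Markers of white blood cells stood higher in the same band input libraries: the summed RPKM of 12 neutrophil markers was 19.9 and 15.7 in sham input and 53.8 and 41.3 in band input. Of 5 tested, Csf3r and S100a9 were called higher, while Ly6g was at 0 in all 12 libraries. Csf3r reached 1 RPKM only in band input and Tie2 TRAP, so it entered the test only by being high in band input, and its call adds no support. Of 12 macrophage and leukocyte markers tested, 4 were called higher in band input (Cd14, Cd68, Fcgr1 and Itgam), and their list summed to 396 and 398 RPKM in sham against 535 and 437 in band input. The part of such cells in the rise of Saa3 was not tested. Mesothelial and epicardial markers, the sum of which was 8.69 and 8.37 RPKM in sham input and 5.79 and 5.65 in band input, did not stand higher with banding, and 1 of 3 tested (Msln) was called lower.

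Lcn2 encodes lipocalin 2, a secreted protein of neutrophils and inflamed epithelia that binds bacterial siderophores and so withholds iron. It had the highest mean level of the 8 genes in each of the 4 operated groups. Its level was 81.0 and 80.2 RPKM in sham input and 120.1 and 105 RPKM in band input. In TRAP RNA it was 95.9 and 92.8 RPKM after sham surgery and 149.6 and 127 RPKM after banding. Band libraries stood above sham libraries in each fraction without overlap. The difference was 0.54 in TRAP RNA (SE 0.11, adjusted p 0.0459), a call, and 0.47 in input RNA (SE 0.11, adjusted p 0.0630), not a call. The call in TRAP RNA was lost in 9 of 19 alternatives, over which its adjusted p ran from 0.00615 to 0.264. These include 6 of the 8 in which a single library was left out, those of sham input, sham TRAP and band input.

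Without surgery Lcn2 was at 3.78 RPKM in CAG input, 4.58 in CAG TRAP and 2.997 in Tie2 input. Tie2 TRAP held 20.2 RPKM, above the other 3 and below every operated library. The mean of sham input was 21.3-fold that of CAG input without surgery, a log2 difference of 4.09 and the largest of the 11654 genes. Sham TRAP stood 20.6-fold above CAG TRAP without surgery, the 3rd largest difference. A difference in log2(RPKM + 1) of more than 1 was reached upwards by 3 of the 8 genes in input (Lcn2, Serpina3n and Saa3), where 0.463% of all genes reached it, and downwards by 1 (Hp), where 1.13% did. In TRAP RNA 2 of the 8 stood higher by more than 1 (Lcn2 and Serpina3n), against 2.61% of all genes, and Hp stood lower, against 1.18%. Each unoperated group is 1 library, so these differences have no test. Surgery, a possible difference in sex and the preparation of a single library cannot be told apart in them.

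**Figure D2:**
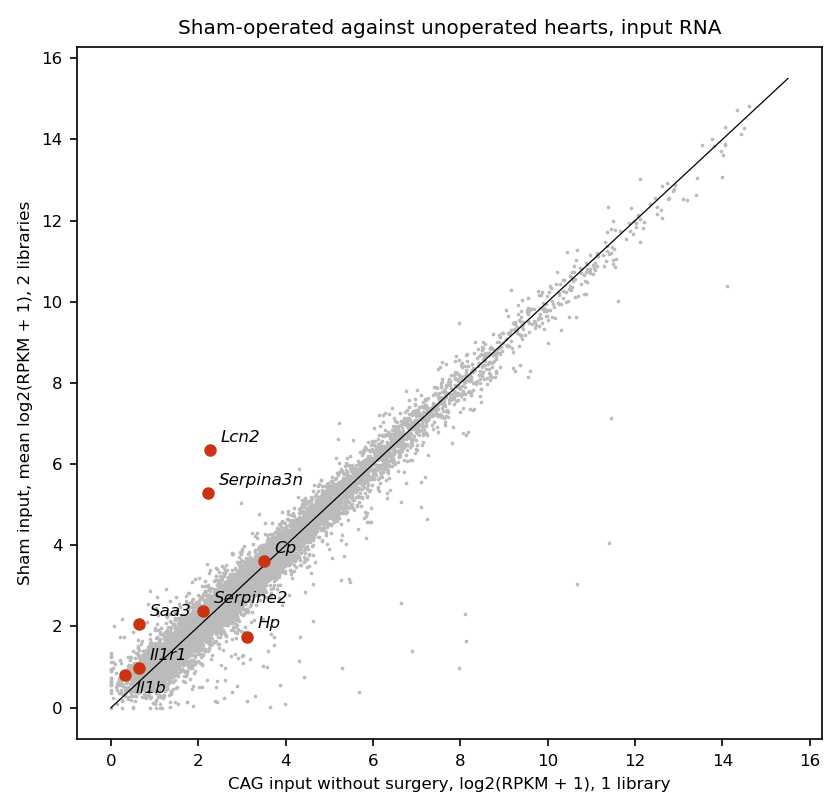
Mean log2(RPKM + 1) of 2 sham input libraries (vertical axis) against the single CAG input library without surgery (horizontal axis) for 11654 genes in grey, with the 8 genes in red and the line of equal level. Lcn2 and Serpina3n lie farthest above the line, at differences of 4.09 and 3.05, and Hp lies below it at -1.37.

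Hp encodes haptoglobin, the plasma protein that binds free haemoglobin. Its level was 2.53 and 2.21 RPKM in sham input against 11.1 and 5.48 in band input. TRAP RNA held 0.967 and 0.890 RPKM of it after sham surgery and 4.87 and 1.19 after banding. All band libraries stood above the sham libraries of the same fraction, but the band libraries were far apart, library 1 being 2.02-fold library 2 in input and 4.09-fold in TRAP RNA. The differences of 1.39 in input (SE 0.46, adjusted p 0.158) and 0.89 in TRAP RNA (SE 0.46, adjusted p 0.340) did not pass the test. The first of these was the 27th largest in the table of 11654 genes. Hp was at 7.71 RPKM in CAG input without surgery, 6.36 in CAG TRAP and 9.73 in Tie2 input. Those 3 values stood above all sham libraries, and sham input was 3.25-fold lower than CAG input without surgery. Tie2 TRAP held 1.67 RPKM, 5.82-fold below its input.

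Adipocyte markers moved with Hp between operated and unoperated hearts. The sum of 7 such markers was 142 RPKM in CAG input, 129.9 in CAG TRAP and 126 in Tie2 input without surgery, 16.4 in Tie2 TRAP, and 1.96 to 7.93 over the 8 operated libraries. Cfd, the adipocyte protease adipsin, made up most of it, at 99.3 RPKM in CAG input without surgery and 1.46 to 5.21 RPKM over the operated libraries. Epicardial and mesothelial markers also stood higher without surgery as a sum, though not each of them. Their sum was 19.6 RPKM in CAG input, 13.5 in CAG TRAP, 20.1 in Tie2 input and 17.1 in Tie2 TRAP, and 2.50 to 8.69 over the operated libraries. Upk3b made up most of the sum in CAG input, at 10.97 RPKM against 1.74 and 1.52 in sham input. Msln, Krt19 and Lrrn4 were also higher in CAG input than in sham input, and Wt1 and Tbx18 differed little. Krt8 was lower, at 0.396 RPKM against 0.828 and 0.922. The part of epicardial and mesothelial cells and of adipocytes in the level of Hp was not tested. With banding the adipocyte markers did not stand higher: their sum was 7.93 and 6.71 RPKM in sham input and 6.49 and 3.37 in band input. By limma 0 of 6 tested were called (1 at an unadjusted p under 0.05, 0 by voom), where 4.08% of all genes were. Within sham input, band input and band TRAP, the library with more Hp was also the one with the higher adipocyte sum. In sham TRAP it was the other way, library 1 having more Hp and the lower sum (3.33 against 3.86 RPKM). Tie2 input likewise held more Hp than CAG input without surgery and had the lower sum.

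**Figure D3:**
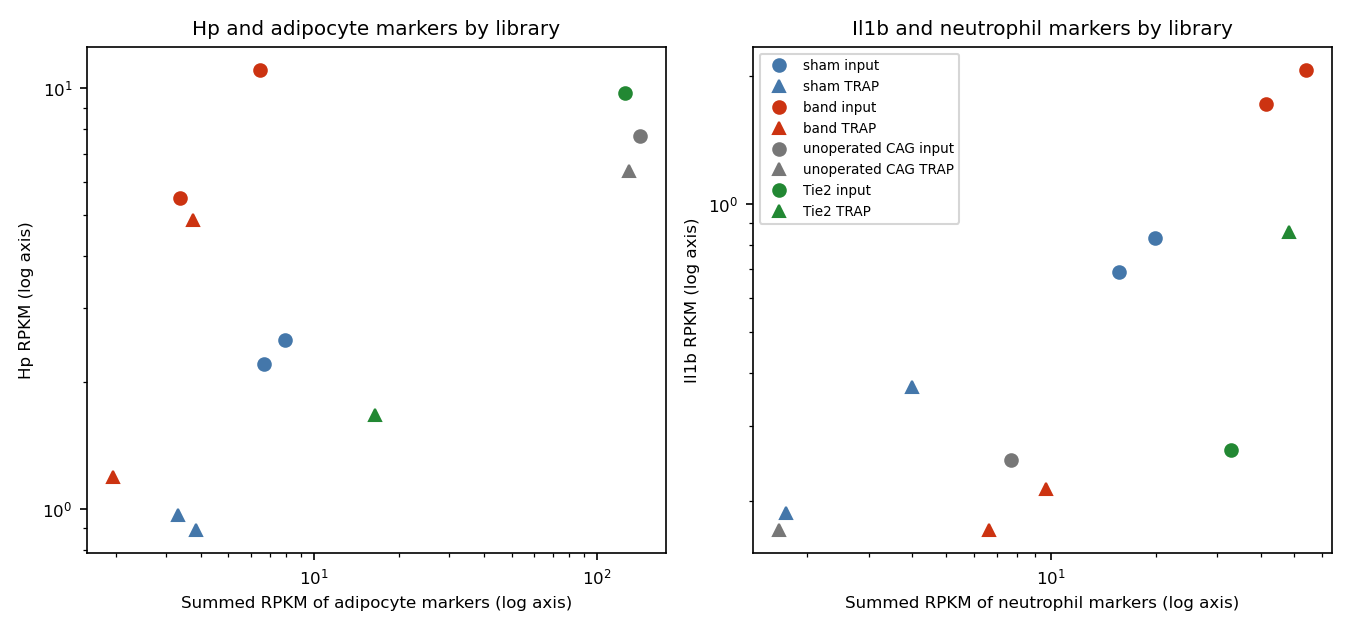
RPKM of Hp against the summed RPKM of 7 adipocyte markers (left), and RPKM of Il1b against that of 12 neutrophil markers (right), both axes logarithmic, 1 point for each of the 12 libraries. Unoperated CAG and Tie2 input libraries lie at marker sums of 126 to 142 RPKM with Hp at 7.71 to 9.73. Band input lies at the upper right of the neutrophil plot. Tie2 input and Tie2 TRAP lie there at sums of 33.0 and 48.2 RPKM with Il1b at 0.264 and 0.857. S100a8 and S100a9 make up most of the neutrophil sum.

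Cp encodes ceruloplasmin, a copper protein that oxidises iron for loading onto transferrin. It was at 10.8 and 11.6 RPKM in sham input and 14.9 and 16.1 in band input, without overlap. In TRAP RNA it was 8.11 and 7.64 RPKM after sham surgery and 7.85 and 3.66 after banding, and the groups overlapped. Neither difference passed the test, at 0.44 in input (SE 0.26, adjusted p 0.432) and -0.47 in TRAP RNA (SE 0.26, adjusted p 0.388). The estimate in TRAP RNA rests on the second band TRAP library: without band TRAP 1 it was -0.93 (adjusted p 0.00189), within a range of 0.00189 to 0.988 over 19 alternatives. The sum of the endothelial markers was 1696 RPKM in band TRAP 1 and 860.3 in band TRAP 2, but Fabp4, which fat cells also express, made up most of it at 1603 and 785 RPKM. Pecam1 was at 18.9 and 16.4 RPKM and Cdh5 at 14.8 and 12.8. Cav1 (26.14 and 15.46), Emcn (5.61 and 2.89), Kdr (3.61 and 2.32) and Tek (2.79 and 1.61) were also higher in band TRAP 1. Egfl7 (18.6 and 20.9) and Vwf (2.83 and 3.24) stood higher in band TRAP 2. The part of endothelial cells in the level of Cp was not tested. Without surgery Cp was at 10.3 RPKM in CAG input, 6.38 in CAG TRAP, 6.64 in Tie2 input and 20.0 in Tie2 TRAP. Tie2 TRAP was the highest of all 12 libraries, and CAG input without surgery lay just below the 2 sham input libraries.

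Serpina3n encodes an inhibitor of serine proteases of the granzyme and elastase kind, the mouse counterpart of human alpha 1 antichymotrypsin. The sham input libraries held 38.0 and 37.5 RPKM of it and the band input libraries 82.4 and 79.5. The TRAP libraries stood at 23.0 and 21.0 RPKM after sham surgery and at 58.2 and 55.2 after banding. The libraries of each group were close, and no groups overlapped. The rise was 1.08 in input (SE 0.08, adjusted p 0.00193) and 1.33 in TRAP RNA (SE 0.08, adjusted p 0.000887), the 64th and 31st largest of 11654. Both calls held under the 20 and 19 alternatives run, with an adjusted p of 0.04999 at the highest, in input without sham input 2. Without surgery the level was 3.67 RPKM in CAG input, 2.28 in CAG TRAP, 1.67 in Tie2 input and 4.73 in Tie2 TRAP. Sham input was 10.3-fold above CAG input without surgery, the 2nd largest difference of all genes, and sham TRAP 9.62-fold above CAG TRAP, the 18th largest. The order of the groups was band input, band TRAP, sham input, sham TRAP and then the 4 unoperated libraries.

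The Serpina3 cluster holds near-copies of Serpina3n that could share reads with it. Its 13 other genes in the table reached at most 1.24 RPKM in the operated CAG libraries (Serpina3m in band TRAP 2) and 3.002 RPKM in any library (Serpina3h in Tie2 TRAP). The level of Serpina3n without surgery is of the same order as that of these relatives and is the less certain for it.

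Serpine2 encodes protease nexin 1, an inhibitor of thrombin, urokinase and tissue plasminogen activator that sits on the cell surface. It was at 3.85 and 4.60 RPKM in sham input and 6.38 and 6.13 in band input. The TRAP libraries held 2.71 and 2.43 RPKM after sham surgery and 4.60 and 3.79 after banding. The groups did not overlap in either fraction, yet neither difference passed the test: 0.48 in input (SE 0.12, adjusted p 0.0786) and 0.54 in TRAP RNA (SE 0.12, adjusted p 0.0562). The latter was a call in 4 of 19 alternatives (adjusted p 0.0131 to 0.303). Without surgery Serpine2 was at 3.30 RPKM in CAG input, 1.92 in CAG TRAP and 4.12 in Tie2 input, near the sham libraries. Tie2 TRAP held 15.9 RPKM, the highest of the 12 libraries.

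For Il1b the sham input libraries held 0.830 and 0.692 RPKM and the band input libraries 2.06 and 1.71. In TRAP RNA it was at 0.187 and 0.370 RPKM after sham surgery and at 0.214 and 0.170 after banding. Band input stood above all other libraries, and the sham and band TRAP libraries overlapped. It rose by 0.71 in input RNA (SE 0.12, adjusted p 0.0222), a 2.48-fold ratio of mean RPKM, and stood at -0.10 in TRAP RNA (SE 0.12, adjusted p 0.722). Il1b rests on few reads, 9 to 84 a library, and passed the filter of 1 RPKM in 2 libraries only through band input, so it could enter the test only by being high there. The call was lost in 9 of 19 alternatives (adjusted p 0.0115 to 0.198), including a smaller pseudocount of 0.25 RPKM, at 0.0679, and 6 of the 8 in which a single library was left out. The neutrophil markers given above stood higher in the same band input libraries and were low in TRAP RNA, at 1.73 and 3.99 RPKM after sham surgery and 9.65 and 6.64 after banding. Their part in the level of Il1b was not tested. Without surgery Il1b was at 0.2498 RPKM in CAG input, 0.171 in CAG TRAP, 0.264 in Tie2 input and 0.857 in Tie2 TRAP. The neutrophil sum in these libraries was 7.66, 1.66, 33.0 and 48.2 RPKM, most of it S100a8 and S100a9. Tie2 input had a higher sum than both sham input libraries but less Il1b. Tie2 TRAP had a higher sum than band input 2 but less Il1b.

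Il1r1, the receptor through which Il1b signals, was not called with banding. Input RNA held 0.966 and 0.971 RPKM after sham surgery and 1.12 and 1.01 after banding. TRAP RNA held 0.468 and 0.495 RPKM after sham surgery and 0.693 and 0.548 after banding, and in neither fraction did the groups overlap. The differences were 0.07 in input (95% interval -0.15 to 0.29, adjusted p 0.766) and 0.13 in TRAP RNA (-0.09 to 0.35, adjusted p 0.523). Il1r1 passed the filter through band input and Tie2 TRAP. Without surgery it was at 0.553 RPKM in CAG input, 0.218 in CAG TRAP and 0.490 in Tie2 input, below the operated input libraries. Tie2 TRAP held 3.11 RPKM (exact Poisson 95% interval 2.86 to 3.37), above every other library.

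**Figure D4:**
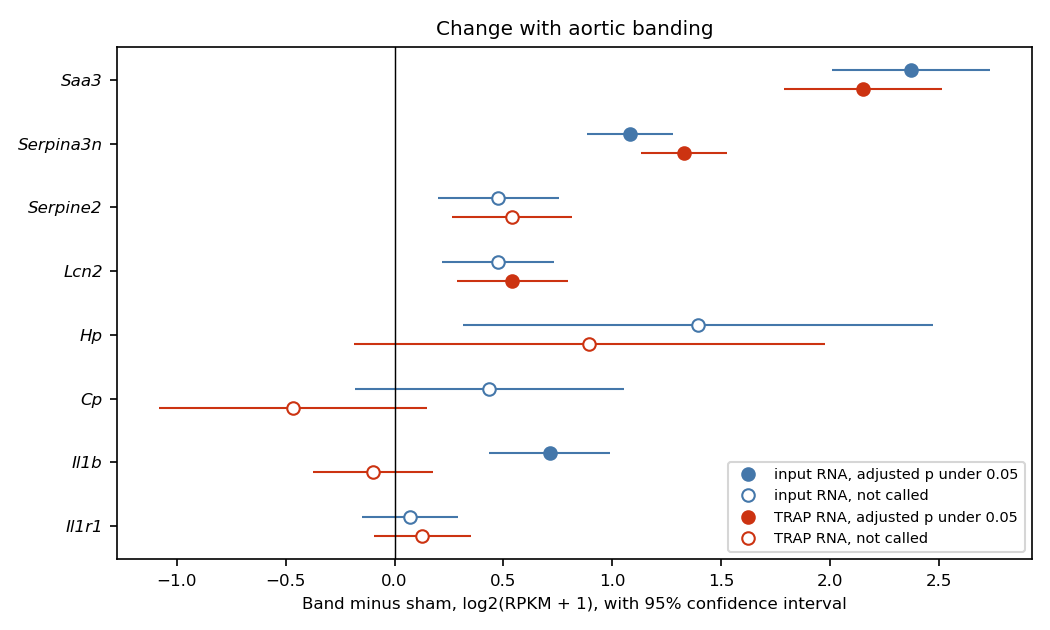
Band minus sham difference in log2(RPKM + 1) (horizontal axis) for each of the 8 genes, with the 95% confidence interval of the limma fit, in input RNA (blue) and TRAP RNA (red); filled points passed the test. Saa3 and Serpina3n lie farthest to the right in both fractions, apart from Hp in input RNA, whose interval is wide.

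The number of calls in input RNA depended on the band TRAP libraries, although they are not part of that comparison, because all groups share 1 estimate of the spread. Without both of them, an alternative chosen after seeing the data, 7 of the 8 genes were called higher in band input, all but Il1r1, and 6.66% of all genes were called higher and 6.31% lower. The adjusted p was then 0.0102 for Lcn2, 0.0134 for Cp, 0.0143 for Hp and 0.0218 for Serpine2. Leaving out band TRAP 1 alone or band TRAP 2 alone also gave 7 calls. In TRAP RNA, 5 of the 8 were called higher without band TRAP 2, the added genes being Hp and Serpine2, and over all genes the calls also increased, to 9.34% higher and 7.57% lower.

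TRAP RNA was compared with input RNA to see which transcripts were more or less abundant on tagged ribosomes. After sham surgery, 5 of the 8 genes were called lower in TRAP RNA and none higher, where 24.5% of all genes were called lower and 15.1% higher. After banding, 6 of 8 were called lower and none higher, against 26.0% and 16.6%. The median of the 8 genes was -0.51 after sham surgery and -0.88 after banding, and that of all genes -0.09 and -0.10. Saa3 fell by 1.04 on the log2 scale (SE 0.15, adjusted p 0.00297) after sham surgery and by 1.26 (SE 0.15, adjusted p 0.00124) after banding. Serpina3n fell by 0.76 (SE 0.08, adjusted p 0.00117) and by 0.51 (SE 0.08, adjusted p 0.00364), and Serpine2 by 0.55 (SE 0.12, adjusted p 0.0106) and by 0.49 (SE 0.12, adjusted p 0.0153). Il1r1 fell by 0.41 (adjusted p 0.0137) and by 0.35 (adjusted p 0.0219). Il1b was at -0.46 (adjusted p 0.0194) and -1.27 (adjusted p 0.000501). Since Il1b passed the filter only through band input, and Il1r1 through band input and Tie2 TRAP, their calls after banding are in part set by the filter and support nothing in the count of 6. Cp stood at -0.46 after sham surgery (adjusted p 0.201) and fell by 1.36 after banding (adjusted p 0.00647). Hp, at -0.80 and -1.30 (adjusted p 0.201 and 0.0558), did not pass in either.

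Lcn2 was the 1 gene of the 8 with more RNA in TRAP than in input in both states, at 0.23 (95% interval -0.03 to 0.48, adjusted p 0.138) after sham surgery and 0.29 (0.04 to 0.55, adjusted p 0.0665) after banding, and neither passed. The call of Il1r1 was lost with quantile normalization in both states, at adjusted p 0.237 after sham surgery and 0.484 after banding, over ranges of 0.00619 to 0.275 and 0.00846 to 0.484. The sham calls of Il1b and Serpine2 were lost in 4 of 19 and 2 of 20 alternatives. All 8 genes were called after sham surgery when either or both band TRAP libraries were left out, 7 lower and Lcn2 higher, and without both of them 32.6% of all genes were called lower and 22.2% higher. Without single sham libraries 2 or 3 were called. Fibroblast and white blood cell markers were lower in the same TRAP libraries: 7 of 8 fibroblast markers and 11 of 12 macrophage and leukocyte markers were called lower after sham surgery, and 6 of 8 and 12 of 12 after banding. In both states 5 of 8 smooth muscle and pericyte markers and 3 of 3 epicardial and mesothelial markers were called lower too. Of 8 cardiomyocyte markers 2 were called lower in both states, and 1 after sham surgery and 3 after banding were called higher. The part of these cell types in the lower TRAP levels of the 8 genes was not tested.

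**Figure D5:**
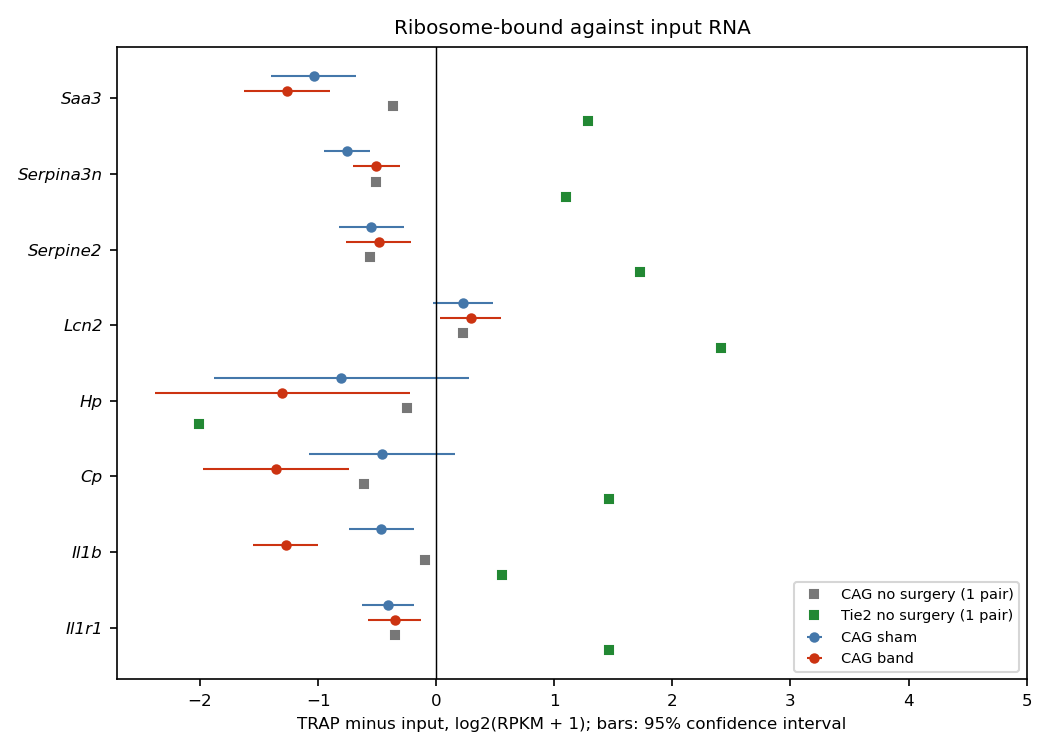
TRAP minus input difference in log2(RPKM + 1) (horizontal axis) for each of the 8 genes in sham (blue) and band (red) CAG hearts with the 95% confidence interval, and in single pairs of unoperated CAG (grey) and Tie2 (green) libraries. All Tie2 differences but that of Hp lie to the right of 0, and in CAG hearts only that of Lcn2 does.

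The interaction, that is whether banding changed the ratio of TRAP to input RNA, was called for 0 of the 8 genes and 0 of 11654 by limma, and for 0 by limma voom on the recovered reads. At an unadjusted p under 0.05, 557 genes (4.78%) and 2 of the 8 were found. Il1b was at -0.81 (SE 0.17, unadjusted p 0.00174, adjusted p 0.659) and Cp at -0.90 (SE 0.37, unadjusted p 0.0446, adjusted p 0.992). Serpina3n was at 0.25 (95% interval -0.03 to 0.53), Saa3 at -0.22 (-0.74 to 0.29) and Lcn2 at 0.07 (-0.30 to 0.43). Without band TRAP 1, Cp was called at -1.36 (adjusted p 0.00411, within 0.00411 to 1.0 over 19 alternatives).

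The 2 input libraries without surgery, of CAG and Tie2 hearts, differed by more than 1 on the log2 scale in none of the 8 genes, a size that 1.97% of all genes reached in one direction and 1.26% in the other. Serpina3n was 2.20-fold higher in CAG input. For Saa3, with 8 and 5 reads and overlapping intervals, no order is given.

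In hearts without surgery the fractions can only be set side by side, with 1 library each. The CAG pair gave 7 of the 8 genes below 0 and Lcn2 above it, and none differed by more than 1, a size that 7.53% of all genes reached downwards and 0.961% upwards. In the Tie2 pair 6 of 8 stood higher in TRAP by more than 1, where 31.5% of all genes did, and Hp stood lower by more than 1, where 13.1% did. The ratio of TRAP to input RPKM in Tie2 hearts was 10.1-fold for Saa3, 6.75-fold for Lcn2, 6.34-fold for Il1r1, 3.86-fold for Serpine2, 3.02-fold for Cp and 2.84-fold for Serpina3n. That of Saa3 rests on 39 against 5 reads. On the log2 scale, the 8 genes had a median of 1.37 and all genes one of 0.48. Against CAG TRAP without surgery, 5 of 8 stood higher by more than 1 in Tie2 TRAP, as 44.4% of all genes did, with Il1r1 at 14.2-fold and Serpine2 at 8.27-fold. Hp stood 3.80-fold lower there, a log2 difference of -1.46, where 11.3% of all genes were lower by more than 1. The sums of endothelial, fibroblast, leukocyte and hepatocyte markers were higher in Tie2 TRAP than in Tie2 input (12409.7 against 1368, 795 against 291, 2753 against 347 and 116 against 12.2 RPKM). The hepatocyte sum in Tie2 TRAP was nearly all Ahsg, at 115 RPKM against 9.73 in Tie2 input. Apoa1, Apoa2 and Ttr of that list stood lower in Tie2 TRAP than in Tie2 input. The part of the marked cell types in the differences of the 8 genes was not tested.

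Other genes of the response were counted in lists. Of 31 further acute phase proteins and their regulators, 15 were tested. With banding 4 were called higher in input and none lower, where 2.44% of all genes were called higher and 1.65% lower. The same 4 genes were called higher in TRAP RNA and none lower, against 2.21% and 1.56% of all genes. The metallothioneins Mt2 and Mt1, which bind zinc and copper, rose by 1.13 and 0.57 in input and by 1.10 and 0.60 in TRAP RNA. The transcription factors Cebpd and Stat3 rose by 0.69 and 0.54 in input and by 0.90 and 0.60 in TRAP RNA. Of 65 other serpin genes in the table, 11 were tested, and none was called lower after banding. Among them Serpina3m, the relative of Serpina3n named above, rose in TRAP RNA by 0.71 (SE 0.13, adjusted p 0.0345), from a mean of 0.359 to 1.22 RPKM, and it passed the filter only through band libraries.

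Of 26 further genes of the interleukin 1 system 12 were tested, and with banding limma called 0 in either fraction (4 in each at an unadjusted p under 0.05, 0 by voom). The 2 with the highest mean level were Nfkbia, the inhibitor of NF-kB, at 0.27 in input (adjusted p 0.152) and 0.36 in TRAP RNA (adjusted p 0.0778), and the kinase Irak1, at -0.14 and -0.15. Of 20 targets, receptors and partners of the 8 genes in the table, 13 were tested. In input RNA 3 were called higher, where 2.44% of all genes were. Plaur, the urokinase receptor, rose by 1.12, Hmox1, the haem oxygenase, by 0.84, and Plau, the urokinase that Serpine2 inhibits, by 0.71. The group mean of Plaur reached 1 RPKM only in band input (2.25), band TRAP (1.30) and Tie2 TRAP (9.03). It may thus have passed the filter only by being high in band libraries, and its call adds no support. In TRAP RNA limma called 1 higher, Hmox1, by 0.68, where 2.21% of all genes were (4 of the list at an unadjusted p under 0.05, 0 by voom). None of these lists had a member called lower with banding. TRAP against input after sham surgery gave 7 lower and 3 higher of the 15 acute phase genes, 3 lower of the 11 serpins, 5 lower of the 12 interleukin 1 genes and 5 lower of the 13 partners, with none higher in the last 3 lists. All genes had 24.5% lower and 15.1% higher, and the 3 of 11 serpins are near that share.

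The likeness of patterns was described by Pearson's r of log2(RPKM + 1) over the 12 libraries, which share groups and, in pairs, conditions. Among the 8 genes, Serpina3n and Lcn2 were alike at 0.946 (0.956 over 11 libraries without Tie2 TRAP), and Serpine2 and Il1r1 at 0.955 (0.872 without Tie2 TRAP). The genes most like Saa3 were Ier3, Timp1 and Cyr61, at 0.971, 0.970 and 0.953. For Serpina3n they were Vcp-rs, Eef2k and Lcn2 (0.952, 0.952 and 0.946), and for Lcn2 Serpina3n, Cd3eap and Serbp1 (0.946, 0.914 and 0.909). Those most like Serpine2 were B4galt5, Srpx and Cd52 (0.983 to 0.985), and those most like Il1r1 Cpt1a, Mmp14 and Ctbp2 (0.981 to 0.984). For Cp they were Fam111a, Psip1 and 9930111J21Rik2 (0.932 to 0.943), for Hp Rabl3, Gm11665 and Pirt (0.846 to 0.886), and for Il1b Csf3r, Ifi205 and Cxcl1 (0.889 to 0.935). Csf3r is one of the neutrophil markers counted above and, like Il1b, could pass the filter only with band input. Some of these names depended on Tie2 TRAP. Over the 11 libraries without it, Cpt1a, Mmp14 and Ctbp2 ranked 15, 18 and 39 for Il1r1, Pirt ranked 60 for Hp and Cxcl1 34 for Il1b, while the others ranked 1 to 15 for their gene.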

How the data were processed

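Values of RPKM were deposited by the authors for 34306 genes in 12 libraries, with the identifier and length of 1 transcript per gene. Reads went through CASAVA 1.8.2, TopHat 1.4 and HTSeq 0.5.3 with the build NCBIM37, per the submitters' processing notes, and the annotation and settings are not given in the sources used here. RNA was pooled, selected for poly(A) and primed with random hexamers in a preparation that does not mark strand, per the labels' protocols, so overlapping and antisense genes cannot be told apart. Of 53 samples in the series, 29 belong to a first deposit and 24 to a later one. The columns were assigned to the later one by name, 0 columns were left over, and the first deposit was not analysed here.

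RPKM times length gave whole reads, within 0.02 reads, for 233410 of 233410 positive values. From the RPKM values, log2(RPKM + 1) was fitted with limma 3.58.1 in R 4.3.3 (moderated, variance trend, two-sided), with a mean for each group over all 12 libraries. The filter asked for 1 RPKM in 2 libraries and left 11654 genes (the 8 members among them), and p was adjusted by Benjamini-Hochberg over them. Residual degrees of freedom were 4, with a prior of 3.02. A fold on this scale understates changes of low genes. The script was tested on simulated data.

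All 8 members are given in every library. Named genes of the context lists are at most 4 per list and comparison, those called with the largest change, or the 2 with the highest mean RPKM where none was called. One result of the serpin list is not reported here. The 3 genes with the highest r are named for each member. The members and lists were chosen with earlier results of these data known. Promoters are from RefSeq, GRCm38.p6. Alternatives covered the pseudocount, filter, scaling, transcript length, libraries in the fit, pairing and the test.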

Additional observations from a re-analysis of the deposited data

Results flagged for a closer look

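For 6 of the 8 genes the difference between TRAP and input RNA had opposite signs in Tie2 and CAG hearts without surgery. On the log2(RPKM + 1) scale Saa3 stood at 1.29 in the Tie2 pair and at -0.36 in the CAG pair, and Serpina3n at 1.10 and -0.51. Serpine2 stood at 1.72 and -0.56, Cp at 1.46 and -0.61, Il1r1 at 1.46 and -0.35, and Il1b at 0.56 and -0.09. Each pair is 1 library of each fraction, so the difference was not tested. The median of all 11654 genes was 0.48 in the Tie2 pair and -0.26 in the CAG pair, so the medians had opposite signs too. The share of all genes with opposite signs was not counted. In the CAG pair the exact Poisson intervals of input and TRAP overlap for Saa3 (0.245 to 1.12 and 0.109 to 0.391 RPKM). Those of Il1b overlap as well (0.114 to 0.474 and 0.107 to 0.259 RPKM). The sign in the CAG pair is thus uncertain for Saa3 and Il1b.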

How the results depend on the processing

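Saa3 and Serpina3n kept their calls in all 4 comparisons of banding and fraction under every alternative run. Of 766 values under alternatives, 683 kept their direction and side of the threshold, 35 passed it anew, 38 lost it and 10 changed sign, none of the 10 being called. After sham surgery the 5 calls of TRAP against input became 3 with a filter of 5 RPKM, which leaves 6 of the 8 genes, 3 with quantile normalization, 8 without both band TRAP libraries, and 2 to 8 when 1 library was left out. For band against sham, the 3 calls in input RNA became 7 without both band TRAP libraries and 2 to 7 when 1 library was left out, and the 3 in TRAP RNA 2 to 5. The 6 calls of TRAP against input after banding became 4 to 7 when 1 library was left out, and the 0 calls for the change of the ratio 0 to 1. The cause was not tested.

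Signs turned as follows, with the range over single libraries left out. Il1b in TRAP RNA ran from -0.20 to 0.0055. For the interaction, Saa3 was 0.082 with a pseudocount of 0.25, 0.29 by voom and -0.40 to -0.04 over libraries; Serpine2 was -0.0077 with a pseudocount of 5 and -0.049 to 0.17 over libraries. The ranges were -0.052 to 0.18 for Lcn2, -0.0066 to 0.12 for Il1r1 and -1.21 to 0.21 for Hp.

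Quantile normalization moved the median of all genes by 0.14 after sham surgery and 0.15 after banding in TRAP against input, and scaling without 90 abundant genes by -0.09 and -0.11. After sham surgery it turned the split of 1763 higher and 2852 lower calls into 2053 and 1851, and the latter scaling into 1255 and 3813. With a replicate block, pairing libraries of 1 number, band against sham calls over all genes fell from 476 to 265 in input and from 439 to 263 in TRAP RNA, and Il1b in input (adjusted p 0.0510) and Lcn2 in TRAP RNA (0.0546) were lost. Deviations of same-numbered libraries correlated at -0.434 to 0.11 over the 6 pairs of groups, so the numbers were not taken as pairs. The 2 planned count tests, by edgeR and DESeq2, were not run. Limma voom on recovered reads, the fit without Tie2 TRAP and that without both band TRAP libraries were chosen after seeing the data. Depth limits the lowest values, as Il1b rests on 9 to 84 reads a library and Saa3 without surgery on 5 to 39.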
